A study of Mus musculus with 6 samples.

Results

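The genes followed here in mouse kidney belong to the endoplasmic reticulum (ER) stress response and the integrated stress response: Atf4, Ddit3, Trib3, Chac1, Asns, Xbp1, Atf6, Hspa5, Dnajb9 and Herpud1. They were chosen by gene symbol, as 10 of the 55450 genes in the table of counts. All 10 had enough counts to be tested, among 16592 genes that did. The table held 11 rows with one of these symbols, because Ddit3 has a second row. The second Ddit3 row, which lies wholly inside the first, held 0 counts in every mouse and was not used.

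RNA from kidney was sequenced in 3 mice of the day-0 group and 3 of the day-21 group of a model of hyperuricemia-related chronic kidney disease (CKD). All were male C57BL/6J wild type mice, bought at 7 weeks of age and kept for 1 week before the experiment. The day-0 mice were controls, labelled as given 20% PEG. The day-21 mice received adenine at 0.16 g/kg together with potassium oxonate at 2.4 g/kg, by daily gavage. Potassium oxonate blocks the enzyme that degrades uric acid in mice, and adenine is converted to a product whose crystals damage the tubules. The groups thus differ in both agents, in vehicle label and in time, and these cannot be told apart.

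When unfolded proteins gather in the ER, the organelle where secreted and membrane proteins are folded, 3 sensors in its membrane respond. IRE1 (Ern1) splices the Xbp1 transcript, ATF6 is cut to release a transcription factor, and PERK (Eif2ak3) phosphorylates the translation factor eIF2. PERK shares that step with 3 other kinases that respond to double-stranded RNA, lack of amino acids or lack of heme, and the common arm is called the integrated stress response: it slows translation in general while the transcription factor ATF4 is made. XBP1 and ATF6 mainly drive chaperones and the removal of misfolded proteins, and ATF4 mainly drives amino acid supply and, with CHOP (Ddit3), genes linked to cell death. Proximal tubule cells make up much of the kidney, and the protein load of their ER was not measured here. Counts per gene do not measure Xbp1 splicing, Atf4 translation, ATF6 cleavage or eIF2 phosphorylation, so what follows is about the amount of each transcript.

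Promoter sequence is shown for the members in which a known control site was found upstream of the RefSeq start, since these sites are the letters by which the response's transcription factors are known to bind DNA. The 4 sites searched, on both strands, were the ER stress element ERSE (CCAAT and CCACG with 9 bases between them), ERSE-II (ATTGG, any 1 base, CCACG), the unfolded protein response element (TGACGTGG) and the C/EBP-ATF composite site CARE (TGATGNAA), to which ATF4 binds. RefSeq windows from 250 bases before to 50 after the start on GRCm38.p6 were at hand for 9 of the 10 members, all but Atf6. Capitals mark the match, and each sequence is given 5′ to 3′ on the strand of its gene.
Hspa5, chr2:34772020-34772048, plus strand, ERSE at bases -65 to -47 from the start: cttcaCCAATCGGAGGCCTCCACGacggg
Herpud1, chr8:94386292-94386412, plus strand, CARE (read on the other strand) at -112 to -105 and ERSE-II at -52 to -42: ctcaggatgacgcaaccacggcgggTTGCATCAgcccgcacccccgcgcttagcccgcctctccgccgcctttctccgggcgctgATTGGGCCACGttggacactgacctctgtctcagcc
Asns, chr6:7693214-7693243, minus strand, CARE at -23 to -16: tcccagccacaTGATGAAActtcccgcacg
Chac1, chr2:119351024-119351081, plus strand, CARE (read on the other strand) at -193 to -186: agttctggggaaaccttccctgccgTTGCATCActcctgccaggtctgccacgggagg
Herpud1 was the one member with both kinds of site. Trib3 held a CARE match at 15 to 22 bases after its start. Atf4, Ddit3, Xbp1 and Dnajb9 held none of the 4 in this window, which says only that these letters are not there. Of all 32851 mouse promoters searched in the same way, ERSE was found in 0.119%, ERSE-II in 0.0365%, the unfolded protein response element in 0.676% and CARE in 3.97%. A match is a description of the letters and not evidence of binding.

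The 6 libraries held 10963849 to 14333311 counts, and levels are given as normalized counts scaled by TMM library size (CPM). The test was the quasi-likelihood test of edgeR, Benjamini-Hochberg adjusted across the 16592 genes. A gene was called (a DEG) when its adjusted p was under 0.05 and its fold exceeded 1.5. The groups differed widely: 19.6% of all genes tested were called higher on day 21 and 15.5% lower, and 57.1% showed no overlap between the groups. Markers of kidney cells were present in every mouse, Umod at 39784 counts or more and Slc34a1 at 12340 or more. All 10 proximal tubule markers were called lower on day 21, and their summed level went from 15100 to 16960 CPM on day 0 to 3667 to 4803 CPM on day 21. Of the 8 markers of distal nephron and podocytes, 6 were called lower. All 8 markers of injured tubule, all 9 leukocyte markers tested and all 8 fibroblast markers were called higher, the leukocyte sum going from 100 to 143 CPM to 841 to 1144 CPM. Of 7 plasma cell markers tested, 3 were called higher and 1 lower, and of 6 endothelial markers 1 was called lower. In these whole-kidney samples fewer cells of a type and less RNA per cell cannot be told apart, and the part of these shifts in the results below was not tested.

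Single controls stood apart in some markers. In the day-0 replicate 1 mouse, the summed level of the injured tubule markers was 1923 CPM, beside 968 and 729 CPM in the other day-0 mice and 20080 CPM or more on day 21. The same mouse had the highest day-0 value of Atf4, Ddit3, Trib3, Xbp1, Dnajb9 and Herpud1. In the day-0 replicate 2 mouse the summed level of the plasma cell markers was 694 CPM, beside 191 and 243 CPM in the other controls and 189 to 368 CPM on day 21. Without this mouse Herpud1, Dnajb9 and Asns were still called, and Trib3 was not. Trib3 also lost its call without day-0 replicate 3, day-21 replicate 1 or day-21 replicate 3. Values without day-0 replicate 1 or 2 are given below where they change a call or move a called value by more than 1.5 times. What sets these controls apart was not tested.

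Of the 10 members, 2 were called higher on day 21 (Asns and Trib3), 2 were called lower (Herpud1 and Dnajb9) and 6 were not called. Without the fold threshold 7 passed (adjusted p under 0.05), 5 of them lower, where 45.6% of all genes tested did so in either direction. The groups did not overlap in 8 of the 10, beside the 57.1% of all genes. The median log2 fold change of the members was -0.43, with 7 negative and 3 positive values, against a median of 0.03 for all genes tested. The counts called in each direction are few, and the shares higher and lower lie close to those of all genes. The size of the moderate falls also rested on the scaling of libraries, and for Atf4 the direction did too. Library size alone raises the fold change of every gene by about 0.39 on the log2 scale. With it Atf4 stood at 0.03, Atf6 at -0.04, Xbp1 at -0.05 and Hspa5 at -0.12. With 3 mice in each group the smallest value of a two-sided exact permutation test is 0.1, and it gave 0.1 for every member except Ddit3 and Chac1, at 0.2.

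**Figure D1:**
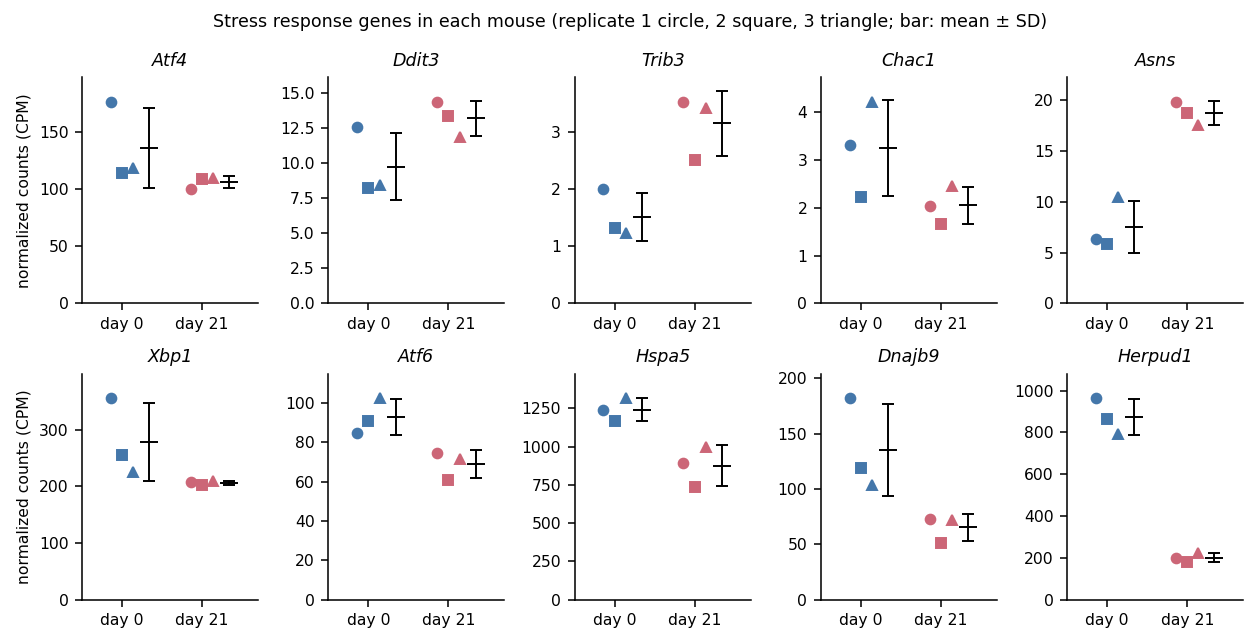
Normalized counts (CPM, vertical axes from 0) of the 10 genes in each of 3 day-0 and 3 day-21 mice, with the mean and SD of each group as a bar. Asns and Trib3 lay higher in every day-21 mouse, Herpud1 and Dnajb9 lay lower in every one, and the day-0 replicate 1 mouse (circle) was the highest control for Atf4, Ddit3, Xbp1 and Dnajb9.

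**Figure D2:**
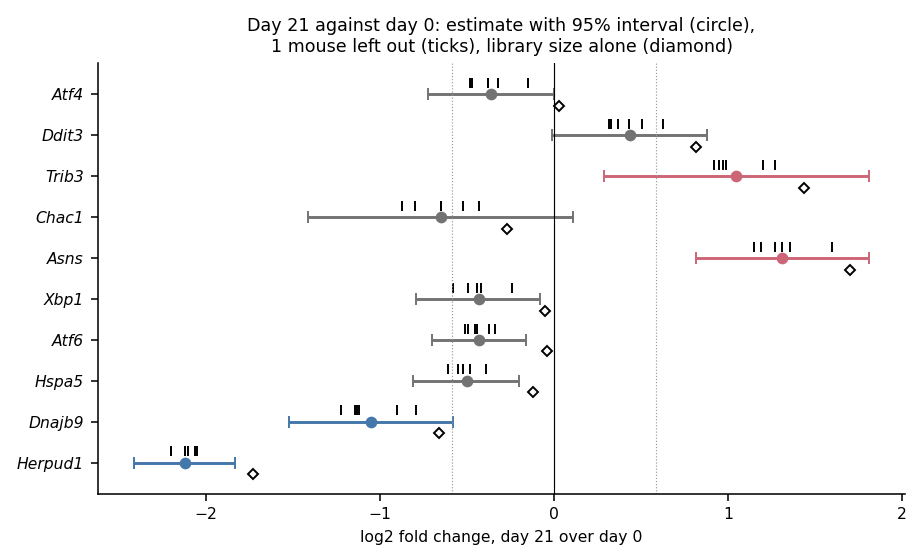
Log2 fold change of day 21 over day 0 for each gene with its 95% interval (circle and bar, red called higher, blue called lower, grey not called), the values with 1 mouse left out (ticks) and the value with library size alone (diamond). Dotted lines mark a fold of 1.5, and the estimates ran from -2.12 for Herpud1 to 1.31 for Asns.

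Herpud1 showed the largest difference of the 10 genes. It encodes a membrane protein of the ER that helps to hand misfolded proteins to the degradation machinery, and it is a target of all arms of the unfolded protein response. On day 0 it was at 965, 865 and 790 CPM in replicates 1 to 3, and on day 21 at 198, 182 and 225 CPM. Every day-21 mouse lay far below the lowest control. The mean went from 873 ± 88.0 to 201 ± 21.7 CPM (SD, n = 3 in each group), a log2 fold change of -2.12 (SE 0.13; adjusted p = 2.1e-06, edgeR) and a fold of 0.230 (95% interval 0.188 to 0.282). The counts behind these values were 7663 to 10497 on day 0 and 2797 to 3666 on day 21. Herpud1 was called lower under all 16 other settings, with estimates from -2.20 to -1.73. The gene (ENSMUSG00000031770.16) spans chr8:94386438-94395377 on the plus strand of GRCm38, and its promoter is the one shown above with both an ERSE-II and a CARE match.

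Dnajb9 was the other member called lower. It encodes ERdj4, a co-chaperone of BiP in the ER lumen that is made under the control of XBP1. Its level was 183, 119 and 104 CPM on day 0 and 73.2, 51.2 and 71.6 CPM on day 21. All day-21 mice lay below all controls. The mean fell from 135 ± 41.8 to 65.3 ± 12.3 CPM, a log2 fold change of -1.05 (SE 0.21; adjusted p = 0.0025, edgeR), or -0.79 without the day-0 replicate 1 mouse. It was called lower under all 16 other settings, with estimates from -1.22 to -0.66. A share of 5.8% of its 50-base words also occurs in the pseudogene Gm6568, which held 1 count in all mice together. Dnajb9 (ENSMUSG00000014905.4) lies at chr12:44205559-44210326 on the minus strand.

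Hspa5 encodes BiP, the main chaperone of the ER lumen, which also holds the 3 sensors inactive and serves as the usual readout of ER stress. It was at 1242, 1164 and 1319 CPM on day 0 and at 895, 733 and 1000 CPM on day 21. The groups did not overlap, and the highest values were those of the controls. The means were 1241 ± 77.5 and 876 ± 134.5 CPM, a log2 fold change of -0.50 (SE 0.14; adjusted p = 0.012, edgeR). At a fold of 0.706, this did not reach the fold threshold, and Hspa5 was not called. Leaving out the day-21 replicate 3 mouse brought it past the threshold, at -0.61 (adjusted p = 0.016), whereas library size alone took the adjusted p to 0.45. Hspa5 (ENSMUSG00000026864.13) lies at chr2:34771970-34777547 on the plus strand, and the ERSE shown above falls within it because GENCODE begins one transcript before the RefSeq start.

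Xbp1 and Atf6 encode the transcription factors of the IRE1 and ATF6 arms. Xbp1 was at 356, 256 and 225 CPM on day 0 and at 208, 202 and 209 CPM on day 21, with narrow values on day 21 and no overlap. Its log2 fold change was -0.43 (SE 0.16; adjusted p = 0.047, edgeR), a fold of 0.740, and -0.24 (adjusted p = 0.13) without the day-0 replicate 1 mouse, which held the highest value. With 1 mouse left out, the adjusted p of Xbp1 stayed under 0.05 only without day-0 replicate 3 (0.0074), and was otherwise 0.055 to 0.13. It was 0.09 with upper quartile scaling, 0.051 with limma and 0.06 among genes with a mean of at least 50 counts. Atf6 was at 84.5, 91.0 and 103 CPM on day 0 and at 74.7, 60.9 and 71.3 CPM on day 21. These groups did not overlap either, and the day-0 replicate 1 mouse was the lowest control here. Its log2 fold change was -0.43 (SE 0.12; adjusted p = 0.016, edgeR), a fold of 0.744, and 0.073 was its adjusted p without the day-21 replicate 2 mouse. Neither gene was called, and with library size alone their adjusted p-values were 0.82 and 0.78. Xbp1 (ENSMUSG00000020484.18) lies at chr11:5520659-5525893 on the plus strand and Atf6 (ENSMUSG00000026663.6) at chr1:170704674-170867771 on the minus strand.

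Asns was the member with the largest rise. It encodes asparagine synthetase, which makes asparagine from aspartate and glutamine and is a classic ATF4 target when amino acids are short. Its level was 6.32, 5.85 and 10.5 CPM on day 0 and 19.9, 18.8 and 17.5 CPM on day 21. The groups were well apart, the highest control (replicate 3) lying below every day-21 mouse. The mean rose from 7.56 ± 2.57 to 18.7 ± 1.18 CPM, a log2 fold change of 1.31 (SE 0.22; adjusted p = 0.00082, edgeR) and a fold of 2.49 (95% interval 1.77 to 3.50). These rest on 63, 71 and 102 counts in the controls and 281, 315 and 286 in the day-21 mice. Asns was called higher under all 16 other settings, with estimates from 1.15 to 1.7. Asns (ENSMUSG00000029752.12) lies at chr6:7675169-7693254 on the minus strand, with the CARE shown above near its start.

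Trib3 was also called higher, from few counts. It encodes a pseudokinase that is made under ATF4 and CHOP and holds ATF4 activity back. The counts were 20, 16 and 12 on day 0 and 50, 42 and 56 on day 21. These correspond to 2.01, 1.32 and 1.24 CPM on day 0 and 3.53, 2.51 and 3.43 CPM on day 21. The groups did not overlap, and the log2 fold change was 1.05 (SE 0.34; adjusted p = 0.029, edgeR), a fold of 2.07 (95% interval 1.22 to 3.52). The call was lost without day-0 replicate 2 (0.95, adjusted p = 0.079), without day-0 replicate 3 (0.92, adjusted p = 0.075), without day-21 replicate 1 (0.97, adjusted p = 0.095) and without day-21 replicate 3 (0.99, adjusted p = 0.10). Trib3 (ENSMUSG00000032715.9) lies at chr2:152337422-152344032 on the minus strand.

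Atf4, the transcription factor at the centre of the integrated stress response, was at 177, 114 and 119 CPM on day 0 and at 100.2, 109 and 110 CPM on day 21. The groups lay close together without overlapping, and the day-0 replicate 1 mouse stood well above the rest. The log2 fold change was -0.36 (SE 0.16; 95% interval -0.72 to 0.00; adjusted p = 0.095, edgeR), and -0.15 without that mouse. Atf4 was not called under any setting, and its control over translation is not seen in counts. Atf4 (ENSMUSG00000042406.8) lies at chr15:80255184-80257541 on the plus strand.

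Ddit3 encodes CHOP, a transcription factor that ATF4 induces and that promotes cell death. It was at 12.5, 8.24 and 8.45 CPM on day 0 and at 14.4, 13.3 and 11.8 CPM on day 21. The groups overlapped through the day-0 replicate 1 mouse, which lay above the lowest day-21 mouse. The log2 fold change was 0.44 (SE 0.20; 95% interval -0.01 to 0.88; adjusted p = 0.10, edgeR), so Ddit3 was not called. Without that control it was called higher, at 0.63 (adjusted p = 0.019), as it was with library size alone, at 0.82 (adjusted p = 0.0067). Ddit3 (ENSMUSG00000025408.15) lies at chr10:127290774-127296288 on the plus strand, and 4.73% of its exon bases lie in exons of genes on the other strand, whose reads could not be told apart if strand was not used in counting.

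Chac1 encodes an enzyme that degrades glutathione and is another ATF4 target. It had 33, 27 and 41 counts in the controls and 29, 28 and 40 in the day-21 mice, or 3.31, 2.23 and 4.23 CPM and 2.05, 1.67 and 2.45 CPM. The groups overlapped, and the values in both were low. The log2 fold change was -0.65 (SE 0.34; 95% interval -1.41 to 0.11; adjusted p = 0.15, edgeR), and Chac1 was not called under any setting in which it was tested. The interval spans both a fall and a small rise. Chac1 (ENSMUSG00000027313.3) lies at chr2:119351229-119354381 on the plus strand. Of the 4 members with a CARE match, Asns and Trib3 were thus called higher, Herpud1 was called lower and Chac1 was not called.

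Levels of different genes were compared as CPM per kilobase of merged exon. On day 0 Herpud1 was the highest of the 10, at 374 ± 37.7, followed by Hspa5 at 294 ± 18.3, and their mice did not overlap. On day 21 this order was turned, with Hspa5 at 207 ± 31.8 and Herpud1 at 86.3 ± 9.29. The turn rests on dividing by merged exon length, 4229 bases for Hspa5 and 2333 for Herpud1. In CPM alone Hspa5 was higher than Herpud1 in every mouse of both groups. Xbp1 at 85.8 ± 21.2, Atf4 at 57.9 ± 14.9 and Dnajb9 at 53.0 ± 16.4 followed on day 0, and each overlapped with its neighbour in that order. On day 21 these 3 were at 63.5 ± 1.18, 45.1 ± 2.24 and 25.6 ± 4.81 in the same order, without overlap between neighbours. Ddit3, Asns, Chac1 and Trib3 were at 5.69, 2.76, 1.99 and 0.715 on day 0, with Atf6 above them at 10.04. Of these, Asns and Chac1 overlapped. On day 21 Ddit3 at 7.68 overlapped with Atf6 at 7.47, and Atf6 with Asns at 6.85. The lowest were Trib3 at 1.49 and Chac1 at 1.26, which also overlapped.

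**Figure D3:**
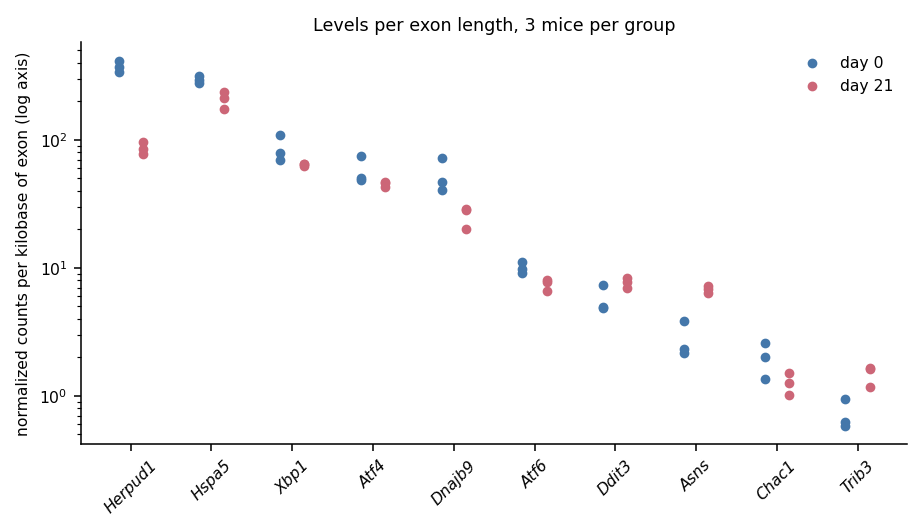
Level of each gene in CPM per kilobase of exon (log axis) in the 3 day-0 mice (blue) and the 3 day-21 mice (red), in the order of the day-0 mean. Per kilobase, Herpud1 stood above Hspa5 on day 0 (374 against 294) and below it on day 21 (86.3 against 207). In CPM alone Hspa5 was the higher of the pair in every mouse.

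Ratios of counts within a mouse do not depend on how libraries are scaled, and they were chosen after the values were seen. Per 1000 counts of Hspa5 there were 777, 743 and 599 counts of Herpud1 on day 0, and 221, 248 and 225 on day 21. The ratio of these genes of ER protein quality control was lower in every day-21 mouse than in any control, with a log2 difference of -1.60. Per 1000 counts of Atf4 there were 35.7, 51.2 and 88.7 counts of its target Asns on day 0 and 198, 173 and 160 on day 21, a log2 difference of 1.69. Per 1000 counts of Xbp1 there were 512, 466 and 462 counts of its target Dnajb9 on day 0 and 352, 253 and 342 on day 21, a log2 difference of -0.62. In none of these ratios, among 6 computed, did the groups overlap, and the two-sided exact permutation p was 0.1 for each, the smallest possible. Because the gene pairs were picked from these same values, the lack of overlap and the p describe the ratios and test nothing.

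The rest of the pathway was followed through 11 lists of genes grouped by role, with 162 distinct genes, of which 158 were tested. Of these, 27 were called higher and 33 lower, and with library size alone 40 were called higher and 15 lower. The median log2 fold change of each list is given beside its counts, to be read against the 0.03 of all genes and against 19.6% and 15.5% called higher and lower.

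Of 18 tested sensors, eIF2 kinases and parts of the eIF2 machinery, 2 were called higher and 2 lower, with a median of 0.04. Eif2ak2 encodes PKR, the eIF2 kinase that responds to double-stranded RNA and is induced by interferon. It rose from 161, 120 and 133 counts on day 0 to 830, 668 and 779 on day 21, a mean of 13.3 ± 3.15 against 48.8 ± 9.45 CPM. Its log2 fold change was 1.88 (SE 0.20; adjusted p = 4.3e-05, edgeR), without overlap. The other 3 eIF2 kinases were not called: Eif2ak3 (PERK) had a log2 fold change of -0.33 (adjusted p = 0.057), Eif2ak1 (HRI, which responds to lack of heme) of -0.26 (adjusted p = 0.097) and Eif2ak4 (GCN2, which responds to lack of amino acids) of 0.07 (adjusted p = 0.79). Ern1, which encodes IRE1, was at -0.50 (adjusted p = 0.010) and Atf6b, a relative of Atf6, at 0.46 (adjusted p = 0.015), neither past the fold threshold. Of the subunits that guide the phosphatase which restores eIF2, Ppp1r15a (GADD34) was at 0.02 (adjusted p = 0.92) and Ppp1r15b (CReP) was called lower, at -0.59 (adjusted p = 0.0026). Dnajc3, a co-chaperone that inhibits eIF2 kinases, was called lower at -0.68, and Nck1, an adaptor that acts on the eIF2 phosphatase, was called higher at 0.72. With library size alone Ppp1r15b (-0.20) and Dnajc3 (-0.30) were not called, and without day-0 replicate 2 Nck1 (0.56) was not. Ppp1r15b was also not called without day-0 replicate 1 (-0.51) or day-21 replicate 2 (-0.53), with upper quartile scaling (-0.50) or among genes with a mean of at least 50 counts (-0.56), nor was Dnajc3 without day-0 replicate 3 (-0.54) or day-21 replicate 2 (-0.58).

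Among ATF4-family transcription factors and stress-response genes, 9 of 13 tested were called higher and 2 lower, and the median was 0.70. The number called higher was 5 without day-0 replicate 2, 5 without day-21 replicate 2 and 3 at the stricter threshold of 0.01 for the adjusted p and 2 for the fold. Gdf15, a secreted stress hormone, was at 7.52 ± 2.02 CPM on day 0 and at 66.9 ± 13.2 CPM on day 21, a log2 fold change of 3.16 (adjusted p = 3.1e-06, edgeR). Atf3, a transcription factor induced by ATF4 and by many other stresses, rose by 2.24 (adjusted p = 0.0029), from 98, 24 and 22 counts on day 0 to 283, 400 and 352 on day 21. The 98 counts are those of the day-0 replicate 1 mouse, and without it the log2 fold change was 3.34. Stc2, which encodes a secreted glycoprotein, was higher by 1.68 (adjusted p = 0.00012) and Cebpb, a partner of ATF4, by 0.83 (adjusted p = 0.019). The call of Cebpb was lost without day-0 replicate 2 (0.74) and without day-21 replicate 2 (0.71). Sesn2, an inhibitor of mTORC1 that ATF4 can induce, went the other way, from 166 ± 25.0 to 79.3 ± 5.59 CPM, a log2 fold change of -1.07 (adjusted p = 0.00011). Vldlr, a lipoprotein receptor, was also called lower, at -0.68 (adjusted p = 0.0024), and at -0.29 it was not called with library size alone.

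The metabolic enzymes that ATF4 is known to drive were split, with 5 of 12 called higher and 4 called lower (median 0.13). Beside enzymes of serine, one-carbon and proline synthesis, the list held Cbs, Cth and the transaminase gene Gpt2. Without day-21 replicate 2, and with DESeq2, 3 were called higher, and among genes with a mean of at least 50 counts the median was -0.22. Mthfd1l (2.03, adjusted p = 0.00014) and Mthfd2 (1.14, adjusted p = 0.0023), both of the mitochondrial folate pathway, were higher. Aldh18a1 (2.01, adjusted p = 7.6e-05) and Pycr1 (1.56, adjusted p = 0.045), which make proline, were higher too, though Pycr1 had at most 22 counts in any mouse and kept its call with 1 mouse left out only without day-0 replicate 2 (2.5). With any of the other mice left out it was at 1.24 to 1.69 and not called, and it was not called by DESeq2 (1.57) or without a filter. Shmt2, the mitochondrial enzyme that feeds one-carbon units from serine, was lower, at -1.78 (adjusted p = 6.4e-06). Cbs (-1.83, adjusted p = 6.6e-06) and Cth (-1.31, adjusted p = 5.1e-05), which make cysteine from homocysteine, were lower as well.

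Among 7 amino acid transporters tested none was called higher and 1, Slc3a2, was called lower, at -0.71 (adjusted p = 0.0029, edgeR), with a median of 0.32. With library size alone 4 were called higher and none lower. Without day-0 replicate 1, 2 were called higher and none lower, without day-0 replicate 2 or without a filter 2 were called higher, and without day-0 replicate 3, without day-21 replicate 1 or with upper quartile scaling 1 was. Slc3a2 encodes the heavy chain shared by several transporters. It was not called without day-0 replicate 1, at -0.55, nor with library size alone, at -0.32. Slc7a11, the cystine transporter that ATF4 induces, was too low to be tested, its counts being 0, 0 and 2 in the controls and 7, 16 and 20 in the day-21 mice. Of 20 cytosolic aminoacyl-tRNA synthetases, 2 were called higher and none lower (1 with an adjusted p under 0.05), and their median was -0.04. The 2 were Vars at 1.13 (adjusted p = 3.7e-05) and Lars at 0.76 (adjusted p = 0.0059), which charge valine and leucine.

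Of 20 chaperones and folding enzymes of the ER lumen tested, 3 were called lower and none higher. The median was -0.24, and at any fold 8 reached an adjusted p under 0.05 downwards and 1 upwards. Hyou1, which exchanges the nucleotide of BiP, went from 272 ± 10.2 to 136 ± 15.6 CPM, a log2 fold change of -1.01 (adjusted p = 6.9e-05, edgeR). Creld2, which is secreted under ER stress, was at -1.0 (adjusted p = 0.00021), and P4hb, a protein disulfide isomerase, at -0.63 (adjusted p = 0.0015). P4hb was not called without day-0 replicate 2 (-0.54), with upper quartile scaling (-0.54) or with library size alone (-0.24). Calr and Pdia3, which fold glycoproteins, were at 0.02 (adjusted p = 0.91) and 0.08 (adjusted p = 0.59). The median of the list was 0.15 with library size alone, where 3 genes were called higher and 2 lower, and 1 was called higher with upper quartile scaling or among genes with a mean of at least 50 counts.

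The machinery of ER-associated degradation, to which Herpud1 belongs, had 5 of 18 genes called lower and none higher, with a median of -0.27 (0.12 with library size alone, where 1 was called lower). None had an adjusted p under 0.05 upwards. Edem1, which marks misfolded glycoproteins for removal, was at 151 ± 13.7 CPM on day 0 and 69.7 ± 8.72 CPM on day 21, a log2 fold change of -1.11 (adjusted p = 6.7e-05, edgeR). Syvn1 and Sel1l, the ubiquitin ligase of the retrotranslocation complex and its partner, were at -0.90 (adjusted p = 0.0002) and -0.70 (adjusted p = 0.0011). With library size alone these 2 were at -0.51 and -0.32 and were not called. Of 19 genes of ER translocation and COPII export, 2 were called lower, Sec23b at -0.63 and Srpr at -0.61, and none higher (1 with an adjusted p under 0.05), with a median of -0.08. Both were uncalled with upper quartile scaling, with library size alone and without day-21 replicate 2 (-0.56 and -0.54), and Srpr also among genes with a mean of at least 50 counts (-0.58).

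Of 10 genes of cell death that have been linked to ER stress, 7 were called higher and none lower, with a median of 1.25. The other 3 were Bcl2l11 at 0.34 (adjusted p = 0.12, edgeR), Mcl1 at 0.14 (adjusted p = 0.6) and Ero1l at -0.27 (adjusted p = 0.17). The list mixes genes that promote death with Bcl2 and Mcl1, which oppose it, and Bcl2 was among the 7. Casp12, a caspase of the ER membrane in rodents, went from 9, 6 and 19 counts on day 0 to 106, 213 and 172 on day 21, a log2 fold change of 3.23 (adjusted p = 0.00013, edgeR), or 3.88 without day-0 replicate 3. Bbc3 (PUMA) was higher by 1.82 (adjusted p = 9.2e-05), Pmaip1 (NOXA) by 1.67 (adjusted p = 1.7e-05) and Tnfrsf10b (the death receptor DR5) by 1.47 (adjusted p = 0.0044). Bbc3 and Pmaip1 are also targets of p53 and Tnfrsf10b of CHOP and p53. These genes rose beside the leukocyte, fibroblast and injured tubule markers, and their cell of origin was not tested.

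**Figure D4:**
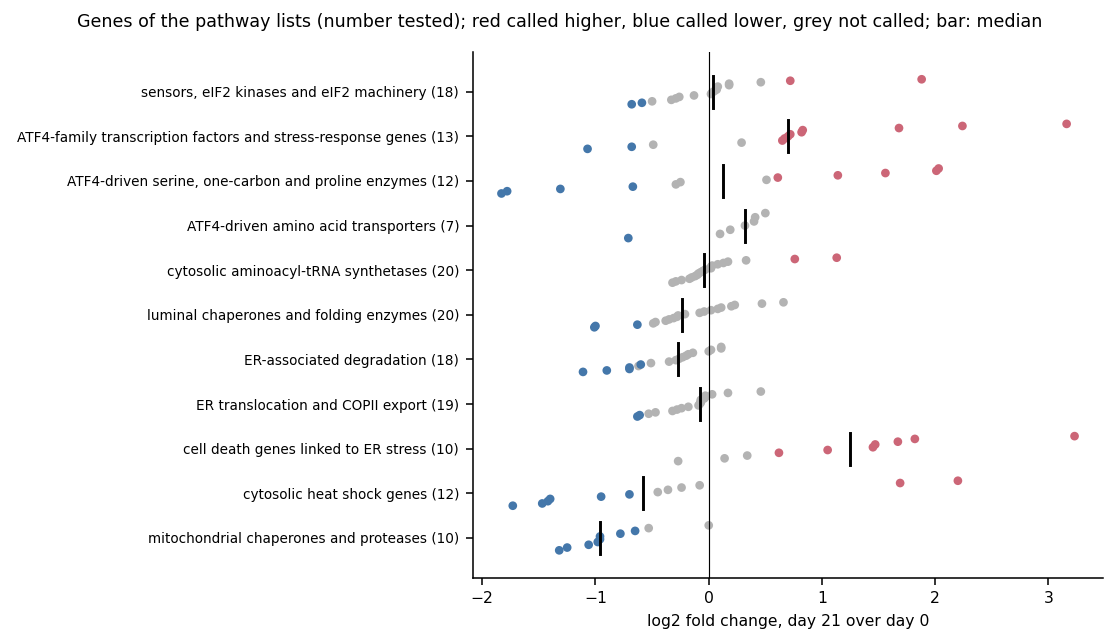
Log2 fold change of day 21 over day 0 for each tested gene of the 11 pathway lists (points, red called higher, blue called lower, grey not called), with the list median as a bar and the number tested in parentheses. Cell death genes lay mostly above 0 (median 1.25), and mitochondrial chaperones and proteases mostly below it (median -0.96).

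Promoters across the genome that held the same sites were described in the same way, as a list made after the values were seen. Of 28 tested genes with an ERSE or ERSE-II, 3 were called higher (10.7%) and 6 lower (21.4%), with a median log2 fold change of -0.08. Of 330 tested genes with a CARE, 86 were called higher (26.1%) and 54 lower (16.4%), with a median of 0.13. These shares stand beside 19.6% higher and 15.5% lower among all genes, and the difference was not tested. The members with a site were not taken out: Hspa5 and Herpud1 are among the 28, and Asns, Trib3, Chac1 and Herpud1 among the 330.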

How the data were processed

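Total RNA of mouse kidney was sequenced from paired-end libraries of 3 day-0 and 3 day-21 mice. The authors deposited raw counts per gene, not normalized, with each mouse kept separate. The submitters' processing notes name TopHat and mm10, and the TopHat version, the counting program and its strand setting are not given in the sources used here. Each of the 6 columns matched the label of 1 sample, and no other column was present. The labels name replicates but not litters or batches, so p-values measure the spread between these mice.

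All 55450 identifiers are those of GENCODE mouse release M21 on GRCm38, which supplied positions and exon lengths. Promoters are from RefSeq (GRCm38.p6). The main test used edgeR 4.0.16 under R 4.3.3 (TMM scaling, quasi-likelihood test, no replicate block). Genes were filtered by filterByExpr, with a minimum total of 15 counts and a minimum count of 10. The latter is a level per mouse, scaled by library size, to be reached in as many mice as a group holds. This left 16592 genes. DESeq2 1.42.0 and limma 3.58.1 were alternatives. Permutation tests were run with scipy 1.17.1 in Python 3.11.15. The fits by edgeR, DESeq2 and limma were tried on simulated counts in which equal numbers of genes were raised and lowered. Other steps, and the choice of scaling under a wide shift between groups, were not tested in this way. No library was a duplicate: within groups, the chi-square of pairs of mice was 6.78 to 23.6 per gene.

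The thresholds for DEGs (adjusted p under 0.05, fold over 1.5) were those of the study. Of each list the text names at most 4 genes called higher and 3 called lower, by fold change, the sensors, and uncalled genes with high counts. The members and lists were chosen with earlier results of these data known. Other alternatives were RLE, upper quartile or library size scaling, no filter or a mean of at least 50 counts, a replicate block, each mouse left out, the library without its 20 highest or its mitochondrially encoded genes, and other thresholds. Replicate numbers did not pair the mice: the deviations of same-numbered mice from their group means correlated at -0.019, 0.165 and 0.09.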

Additional observations from a re-analysis of the deposited data

How the results depend on the processing

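Among the 10 members, 4 were called, and this became 7 at an adjusted p under 0.05 with any fold, 5 of them lower in place of 2. One gene was called higher in place of 2 with a mean of at least 50 counts, where Trib3 was not tested, and 1 at the stricter threshold (adjusted p under 0.01, fold over 2). With 1 mouse left out, 3 to 5 members were called, 1 to 3 of them higher and 2 to 3 lower. Of the genes on the pathway lists 60 were called, 27 higher and 33 lower; with library size alone 15 were lower and 40 higher, and at that stricter threshold 28 were called, 15 higher and 13 lower. With 1 mouse left out, 47 to 60 list genes were called, 20 to 27 higher and 27 to 34 lower. Fold changes turned in sign for genes that were not called: with library size alone Atf4 was at 0.03 (adjusted p = 0.9, edgeR), Eif2ak1 at 0.13 and Eif2ak3 at 0.05. With RLE scaling and with DESeq2, Calr and Ppp1r15a were each at -0.01. With 1 mouse left out, Calr ran from -0.08 to 0.10, Eif2ak4 from -0.07 to 0.27 and Ppp1r15a from -0.11 to 0.17. No named gene that was called changed sign. The replicate block, which has no basis in the labels, and for which replicate 2 alone correlated best with its own number in both groups, gave 4 members called, 2 in each direction, and 59 list genes, 26 higher and 33 lower. The loss of Pycr1 was its one change of call among the named genes. Library size alone moved the median of all genes by 0.39, upper quartile scaling by 0.09 and RLE by -0.03. Of the other values recomputed under alternatives, 1365 kept their direction and side of the threshold or moved within the spread, 76 lost a call or counted fewer, 21 gained one or counted more, and 19 list medians moved by more than the spread between mice. Trib3 and Chac1 had at most 56 and 41 counts in a mouse. The causes of these changes were not tested.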

Other observations

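Chaperones outside the ER were also measured. Of 12 cytosolic heat shock genes, 6 were called lower on day 21 and 2 higher, with a median log2 fold change of -0.58 (-0.19 with library size alone, where 4 were called lower and 2 higher). The inducible chaperone genes Hspa1a and Hspa1b were at -1.73 (adjusted p = 1.2e-05, edgeR) and -1.47 (adjusted p = 0.00045), but these near-identical neighbours share reads and their separate values are uncertain. Hsph1, their nucleotide exchange factor, was at -1.42 (adjusted p = 0.00018), from 281, 310 and 457 CPM on day 0 to 133, 111 and 148 CPM on day 21. The small heat shock protein genes went the other way. Hspb8 rose from 6.72, 6.35 and 8.76 CPM to 31.6, 33.8 and 34.9 CPM, a log2 fold change of 2.20 (adjusted p = 4.3e-06), without overlap. Hspb1 was at 11.4, 17.9 and 77.1 CPM on day 0 and at 105, 135 and 100.9 CPM on day 21 (1.69, adjusted p = 0.027), and it was not called by DESeq2 (adjusted p = 0.072), without day-0 replicate 2 (1.36) or without day-21 replicate 2 (1.54). Without day-0 replicate 3, its highest control, it was at 2.92.

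Of 10 mitochondrial chaperones and proteases, 8 were called lower and none higher, with a median of -0.96, and none had an adjusted p under 0.05 upwards. With library size alone 4 were called lower and the median was -0.57. Trap1, a mitochondrial relative of HSP90, was at 351, 422 and 390 CPM on day 0 and at 171, 137 and 157 CPM on day 21, a log2 fold change of -1.32 (adjusted p = 2e-05, edgeR). Hspd1, the folding chamber HSP60, was at -1.25 (adjusted p = 5.9e-05) and Clpx, the unfoldase of a matrix protease, at -1.06 (adjusted p = 0.00025). These genes fell beside the proximal tubule markers, all 10 of which were called lower, and the part of cell composition in them was not tested.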
